A study of Mus musculus with 6 samples.

Results

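The enzymes and regulators of mitochondrial and peroxisomal fatty acid oxidation were examined in mouse ileum, the distal small intestine. The group holds 33 genes listed by symbol, and all 33 were listed in both deposited columns, among 21950 gene symbols in all. There were 3 mice of each genotype, wild type and TLR4ΔIEC, all of strain C57BL/6 and 24 weeks old. TLR4ΔIEC mice lack Toll-like receptor 4, the receptor for bacterial lipopolysaccharide, in intestinal epithelial cells, and other cells of the tissue keep the gene. What drives the deletion is not given in the sources used here. RNA of each mouse was depleted of ribosomal RNA and made into a barcoded library, but the deposited values are 1 column of average coverage for each genotype, shared by its 3 mice. No spread between mice can therefore be given and no test was possible, so every difference below is one between 2 pooled columns.

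Fatty acid oxidation shortens acyl-CoA from its carboxyl end in repeated rounds of dehydrogenation, hydration, a second dehydrogenation and thiolysis. Mitochondria take long chains up as carnitine esters and pass the electrons to the respiratory chain, while peroxisomes shorten very long and branched chains first. The nuclear receptors of the PPAR family, paired with RXR, switch many of these genes on when fatty acids are abundant, and enterocytes of the small intestine, which absorb dietary fat, express them at high levels.

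Of transcript entries, 22724 were listed for wild type and 22687 for TLR4ΔIEC, and the middle entry was covered 1.57 and 1.70 times per base. Values are given below in units, meaning coverage scaled so that the columns hold 1000000 units on average. Since coverage is per base of transcript, units can be compared between genes, but only roughly. The length behind an average is known only up to a multiple, and sequence shared with other genes makes some values uncertain. Paired values give wild type first and TLR4ΔIEC second, and the log2 ratio (TLR4ΔIEC over wild type, of units plus 1) follows in parentheses. Tlr4 itself was weakly covered, at 2.90 and 2.24 units (-0.27). Its value covers the whole gene and all cells of the tissue, and is a weak check of the labels. The 7 general epithelial markers were abundant, at 7557 and 7138 units summed, among them Cldn7 (-0.65), Krt19 (0.43) and Epcam (-0.40). Wild type and TLR4ΔIEC libraries went into separate sequencing pools, so genotype and pool cannot be told apart.

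The listed fatty acid oxidation genes were mostly lower in the TLR4ΔIEC column. The members and the other lists were chosen with earlier results of these data known. Other enzymes of fatty acid oxidation, described further below, had a median log2 ratio of 0.08. Of the 30 of these that reached a mean of 5 units, 43.3% lay below 0 and 3.33% were at least 1.5-fold lower. Of the 33 members, 25 had a log2 ratio below 0, or 75.8%. Among all 8888 genes that reached a mean of 5 units, 47.3% lay below 0. At least 1.5-fold lower were 11 members, against 10.2% of all genes, and 0 members were at least 1.5-fold higher, against 6.57% of all genes. Past 2-fold, 2 members were lower (2.79% of all genes) and 0 were higher (1.29% of all genes). The count at 1.5-fold was 6 with scaling to the total less its 50 highest genes, and 5 among the 20 members that share no exon and little sequence with other genes (Ppard, Hadh, Acaa2, Hsd17b4 and Vnn1). All 33 members passed the 5-unit minimum. Their median log2 ratio was -0.26, where that of all genes was 0.03, and together they held 2402 and 1853 units. In whole tissue, fewer cells of a type and less RNA per cell cannot be told apart.

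The differences were uneven across the pathway. All 5 peroxisomal members, both acyl-CoA thioesterases and all 4 genes of the mitochondrial hydratase, dehydrogenase and thiolase steps were lower in the TLR4ΔIEC column. The acyl-CoA dehydrogenases that open each mitochondrial round, and the genes of carnitine entry, were split around 0. The ratios formed a lower set of 11 members from -1.76 to -0.60 and a remainder from -0.38 to 0.47, with none between Crat (-0.60) and Ech1 (-0.38). Other settings placed members in this gap, such as Acaa1a (-0.43) with the trend on transcript length and GC content removed.

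**Figure D1:**
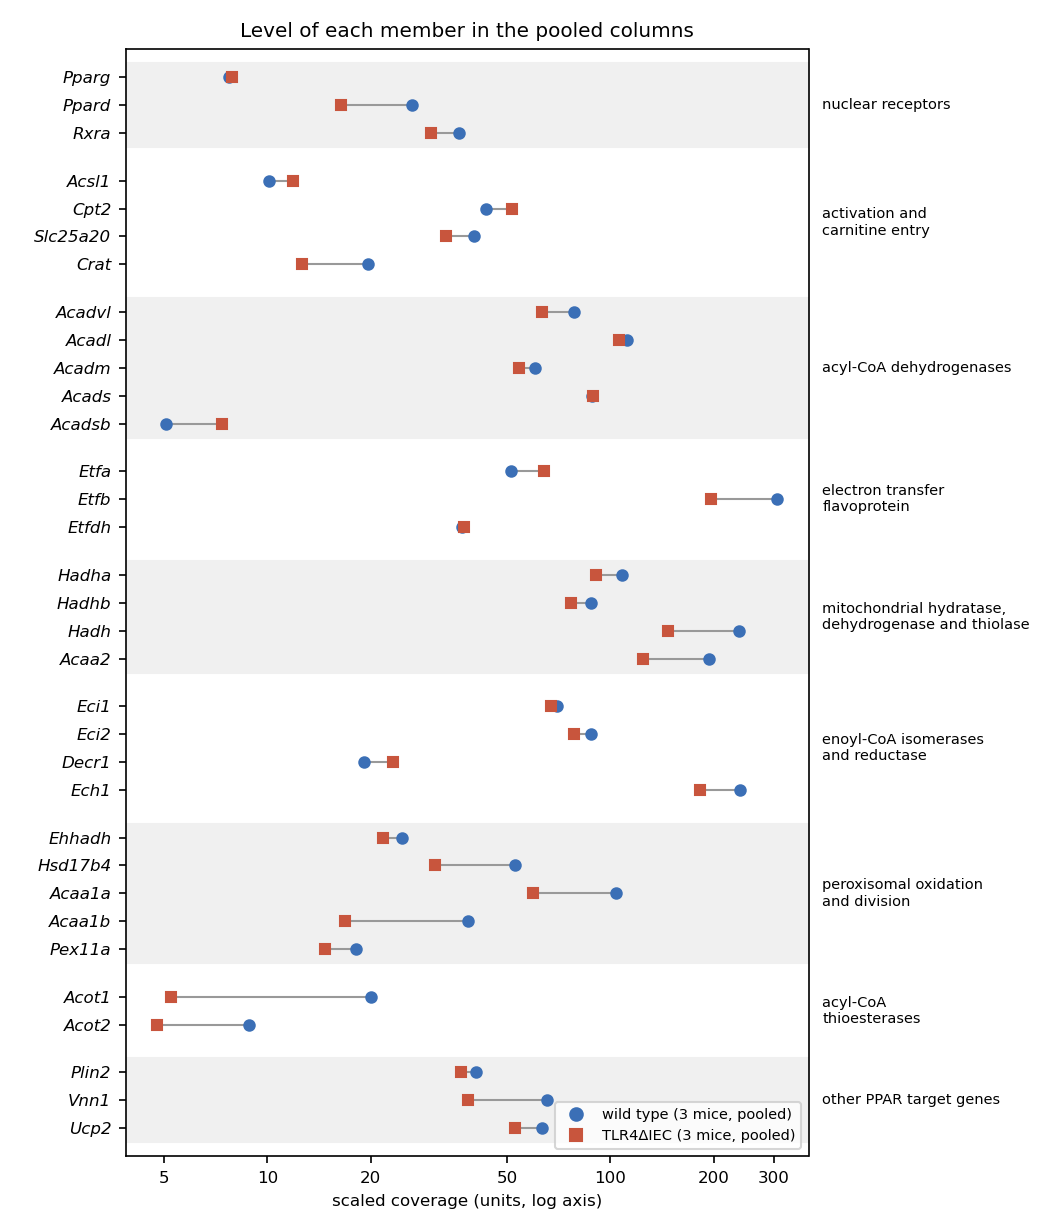
Level of each of the 33 members in scaled coverage units (log axis), with circles for the wild type column and squares for the TLR4ΔIEC column, each pooled over 3 mice. Etfb was the most abundant member in both columns (307 and 197 units), and the widest gap on the log axis is that of Acot1 (20.03 and 5.22 units).

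Among the nuclear receptors, Ppard, the PPAR form found widely in the gut epithelium, had 26.4 and 16.4 units (-0.65). Rxra, the common partner of the PPAR receptors, had 36.2 and 30.04 units (-0.26), and the lengths behind its averages differed between the columns. Pparg, best known as the regulator of fat cell differentiation, was weakly covered and nearly equal, at 7.71 and 7.87 units (0.03). The ratio of Ppard was thus the lowest of the 3, and it was -0.33 once the trend of the ratio with transcript length and GC content was removed.

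Genes that bring acyl chains into mitochondria were divided. Acsl1, which couples long-chain fatty acids to coenzyme A, had 10.1 and 11.8 units (0.21). Cpt2, which turns carnitine esters back into acyl-CoA inside the mitochondrion, had 43.3 and 51.6 units (0.25). The carrier Slc25a20, which brings the carnitine esters across the inner membrane, had 39.9 and 33.1 units (-0.26). Crat, which makes carnitine esters of short chains, was the lowest of this step at 19.6 and 12.6 units (-0.60). Its exons share 59 bases with Dolpp1 on the opposite strand, a gene that was itself at 26.6 and 20.03 units, and the sources used here do not say whether counting used strand.

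Of the 5 acyl-CoA dehydrogenases, which take the first pair of electrons, none passed 1.5-fold. Acadvl for very long chains had 78.5 and 63.2 units (-0.31), and 1151 of its 2686 exon bases overlap Dvl2, which was at 2.95 and 2.60 units. Acadl for long chains was the most abundant of the 5 at 112 and 106 units (-0.08), turning to 0.03 and 0.06 with the total less its 50 highest genes and with quantile scaling, and Acadm for medium chains was at 60.1 and 54.1 units (-0.15). Acads for short chains had 88.5 and 88.8 units (0.01), or 0.41 with the length and GC trend removed. Acadsb, which acts on branched short chains in isoleucine breakdown, was the highest of all members in ratio (0.47), but it was also the least covered in wild type, at 5.05 units against 7.39 in TLR4ΔIEC. The lengths behind its averages differed between the columns (1116 and 1085 bases, or multiples of these). The same held for Rxra and Acaa1b, so the ratios of these 3 genes are less certain. From very long to short chains the ratios were -0.31, -0.08, -0.15 and 0.01, with no steady order by chain length.

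The electron transfer flavoprotein, which carries electrons from all these dehydrogenases, gave opposite ratios for its paired subunits. Etfb (chromosome 7, 43444083 to 43457800, plus strand in mm10) was covered 209.7 and 140.9 times per base, or 307 and 197 units (-0.64). Etfa (chromosome 9, 55454508 to 55512243, minus strand) had 51.2 and 64.1 units (0.32). The level of Etfb relative to Etfa was therefore 6.00 in wild type and 3.07 in TLR4ΔIEC. Etfdh, which hands the electrons on to ubiquinone, was nearly equal at 36.9 and 37.4 units (0.02). The Etfb value carries a limit, since 67.3% of the 50-base words of its transcript also occur in Gm45233, a gene model that overlaps it on the same strand. Etfb is also a short transcript, and its ratio was -0.37 with the trend on length and GC content removed.

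The 4 member genes of the later mitochondrial steps were all lower. Hadh (chromosome 3, 131233419 to 131272101, minus strand), the hydroxyacyl-CoA dehydrogenase for short and medium chains, was covered 162 and 105.4 times per base, or 237 and 147 units (-0.69), from at least 289963 and 188530 bases of reads. Acaa2, the thiolase that ends the round, had 194 and 124 units (-0.64). Neither shares exons or 50-base words with another gene. The trifunctional protein, which acts on long chains at the inner membrane, was closer to equal in both subunits. Its alpha subunit gene Hadha had 107.8 and 90.9 units (-0.24) and its beta subunit gene Hadhb 87.97 and 76.7 units (-0.20). Their levels relative to each other were 1.23 in wild type and 1.19 in TLR4ΔIEC, the smallest difference of the 10 pairs compared. Hadhb shares 62.4% of its 50-base words with other gene models, mainly Gm13910, so part of its coverage may be placed uncertainly.

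Hadha and Hadhb lie head to head on chromosome 5, with 272 bases between their RefSeq starts. By the RefSeq starts, the bases between lie before both genes. The GENCODE start of Hadha, at position 30155162, falls among these bases, so part of the stretch is inside the GENCODE gene of Hadha. The stretch is shown because both genes had nearly the same ratio. A link between the sequence and the ratios was not tested. It is given 5′ to 3′ on the plus strand, reading towards Hadhb, at chr5:30155003-30155252 (RefSeq, GRCm38.p6), with GC boxes (GGGCGG on either strand) in capitals.
Hadha and Hadhb: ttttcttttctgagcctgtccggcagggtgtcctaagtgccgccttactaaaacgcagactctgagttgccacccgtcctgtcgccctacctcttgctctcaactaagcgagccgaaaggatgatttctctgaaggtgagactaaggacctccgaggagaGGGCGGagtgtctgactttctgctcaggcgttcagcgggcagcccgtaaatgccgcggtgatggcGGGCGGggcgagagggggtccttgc
The 250 bases hold 2 GC boxes and 17 CpG dinucleotides, with a GC content of 58.8%. Among promoter windows of 300 bases (250 before and 50 after the start), a GC box was found in 24 of 32 windows of the members, in 63.3% of windows of all genes above the 5-unit minimum and in 35.6% of all windows.

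**Figure D2:**
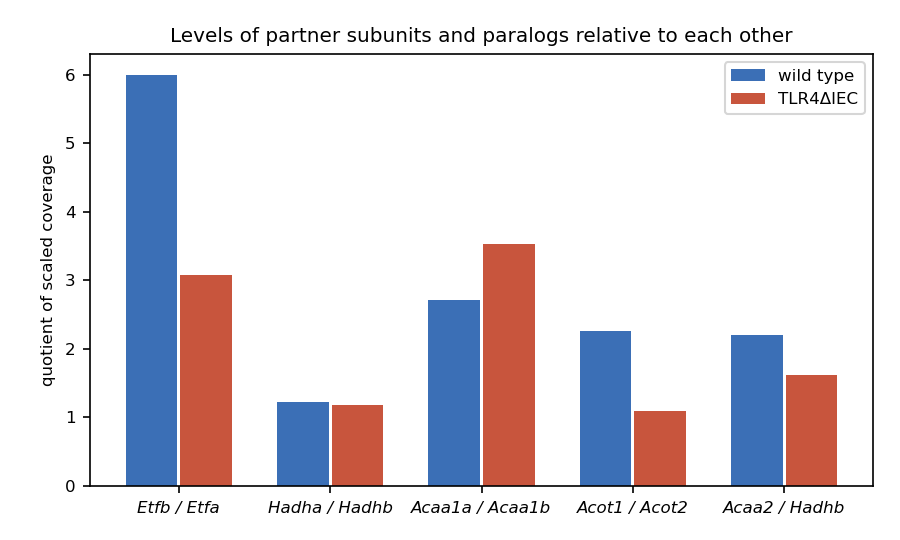
Quotient of scaled coverage between partner subunits or paralogs in the wild type and TLR4ΔIEC columns (1 bar per pooled column, no replicates). The quotient of Etfb to Etfa was 6.00 and 3.07 and that of Acot1 to Acot2 was 2.26 and 1.10, while Hadha to Hadhb was 1.23 and 1.19.

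None of the 4 helper enzymes for unsaturated chains passed 1.5-fold, and they lay on both sides of 0. Eci1, an isomerase that moves double bonds into place, had 69.7 and 67.01 units (-0.06). Its relative Eci2, found in mitochondria and peroxisomes, had 88.1 and 78.4 units (-0.17). Decr1, a reductase for chains with conjugated double bonds, was one of the 8 members above 0, at 19.1 and 23.2 units (0.27). Ech1, a dienoyl-CoA isomerase, was the second most abundant member at 238 and 183 units (-0.38). The sign of Eci1 was positive with equal totals (0.01), with the total less its 50 highest genes (0.05), with quantile scaling (0.02) and with the length and GC trend removed (0.05).

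Peroxisomal members were lower by more than the mitochondrial ones in the median. The median log2 ratio of the 5 peroxisomal genes was -0.75, and that of the 12 genes of the mitochondrial dehydrogenases, electron transfer and later steps was -0.17. With the trend on length and GC content removed the medians were -0.43 and -0.21. The difference between these groups was not tested. Acaa1b (chromosome 9, 119148023 to 119157093, minus strand), a peroxisomal thiolase, was covered 26.2 and 12.04 times per base, or 38.4 and 16.8 units, 2.21-fold lower (-1.14). Its close copy Acaa1a (chromosome 9, 119339676 to 119350299, plus strand) was more abundant, at 104.2 and 59.4 units (-0.80). Hsd17b4, the D-bifunctional enzyme that handles branched and very long chains, had 52.6 and 30.8 units (-0.75). The L-bifunctional enzyme gene Ehhadh, which works on straight chains, had 24.7 and 21.8 units (-0.17). Pex11a, a membrane protein of peroxisome division, had 18.2 and 14.7 units (-0.29). The thiolase and the D-bifunctional genes thus carried the larger differences of the 5.

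Both thiolase genes share sequence, since 35.5% of the 50-base words of Acaa1b occur in Acaa1a, so their values are uncertain one by one. Summed, the pair had 143 and 76.3 units (-0.89). The lengths behind the averages of Acaa1b differed between the columns, with 1669 bases or a multiple in wild type and a multiple of 537 in TLR4ΔIEC. It overlaps Dlec1 by 224 exon bases on the opposite strand, but Dlec1 was at 0.68 and 0.53 units. Acaa1a overlaps the TLR adaptor gene Myd88 by 290 exon bases on the opposite strand, and Myd88 was at 28.4 and 26.6 units (-0.10). With the trend on length and GC content removed, the ratios were -0.79 for Acaa1b and -0.43 for Acaa1a. The upstream bases of these 2 genes are shown because the transcripts are alike and the ratios differ. Whether the upstream bases bear on the ratios was not tested. The RefSeq start of Acaa1a lies 1618 bases downstream of the first GENCODE start given above, so its stretch is inside the GENCODE gene. GC boxes are in capitals, and each line reads 5′ to 3′ towards its gene (RefSeq, GRCm38.p6, at chr9:119341044-119341293, plus strand, and chr9:119157094-119157343, minus strand).
Acaa1a: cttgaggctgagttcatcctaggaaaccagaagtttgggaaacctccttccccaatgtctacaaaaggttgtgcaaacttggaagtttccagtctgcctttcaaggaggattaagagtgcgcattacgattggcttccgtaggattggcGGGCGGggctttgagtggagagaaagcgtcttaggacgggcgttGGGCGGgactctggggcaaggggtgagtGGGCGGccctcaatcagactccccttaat
Acaa1b: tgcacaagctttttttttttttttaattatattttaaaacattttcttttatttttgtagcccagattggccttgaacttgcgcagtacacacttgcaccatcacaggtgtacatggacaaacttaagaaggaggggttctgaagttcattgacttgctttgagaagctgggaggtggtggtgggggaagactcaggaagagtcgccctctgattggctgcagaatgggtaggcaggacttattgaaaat
Acaa1a holds 3 GC boxes in these 250 bases and Acaa1b holds 0, and the 2 stretches share no run of 12 bases or longer. In a global alignment 48.2% of positions were identical.

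Acyl-CoA thioesterases, which release free fatty acids from acyl-CoA and are among the strongest PPAR alpha targets in rodents, were the lowest group. Acot1 (chromosome 12, 84009490 to 84018371, plus strand), the cytosolic form, was covered 13.7 and 3.74 times per base, or 20.03 and 5.22 units, 3.38-fold lower (-1.76). Behind this lay at least 21313 and 5826 read bases (the length behind an average, and so the bases, are known only up to a multiple), and the ratio was the 38th lowest ratio of 8888 genes. Acot2 (chromosome 12, 83987861 to 83993873, plus strand), the mitochondrial form next to it, had 8.87 and 4.77 units (-0.77). The pair therefore stood at 2.26 to 1 in wild type and at 1.10 to 1 in TLR4ΔIEC. Of the 50-base words of Acot1, 23.9% occur in Acot2 and 33.2% in any other gene, so single values are uncertain here too. Summed, the pair had 28.9 and 9.99 units (-1.44). The upstream bases are shown as the pair holds the lowest ratio of all members, again 5′ to 3′ with GC boxes in capitals (chr12:84009252-84009501 and chr12:83987611-83987860, plus strand).
Acot1: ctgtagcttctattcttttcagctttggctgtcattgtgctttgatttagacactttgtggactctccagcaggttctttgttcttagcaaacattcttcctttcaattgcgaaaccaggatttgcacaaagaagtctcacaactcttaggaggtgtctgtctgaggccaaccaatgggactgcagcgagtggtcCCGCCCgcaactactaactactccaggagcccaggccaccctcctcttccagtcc
Acot2: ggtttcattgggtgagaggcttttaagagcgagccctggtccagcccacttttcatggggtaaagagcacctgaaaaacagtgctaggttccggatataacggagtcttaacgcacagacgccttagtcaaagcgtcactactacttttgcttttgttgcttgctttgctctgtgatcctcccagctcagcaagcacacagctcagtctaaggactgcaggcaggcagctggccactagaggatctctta
Acot1 holds 1 GC box and Acot2 holds 0, no run of 12 bases is shared, and 45.2% of aligned positions were identical. Here too a link to the ratios was not tested.

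The remaining PPAR target genes were lower by less than Acot1. Vnn1 (chromosome 10, 23894688 to 23905343, plus strand), a membrane pantetheinase of the brush border, had 65.4 and 38.5 units (-0.75). Ucp2, a carrier of the inner mitochondrial membrane, had 63.4 and 52.8 units (-0.26). Plin2, which coats lipid droplets, had 40.5 and 36.7 units (-0.14). Vnn1 was thus the one member of these 3 past 1.5-fold, and it shares no 50-base word with another gene.

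**Figure D3:**
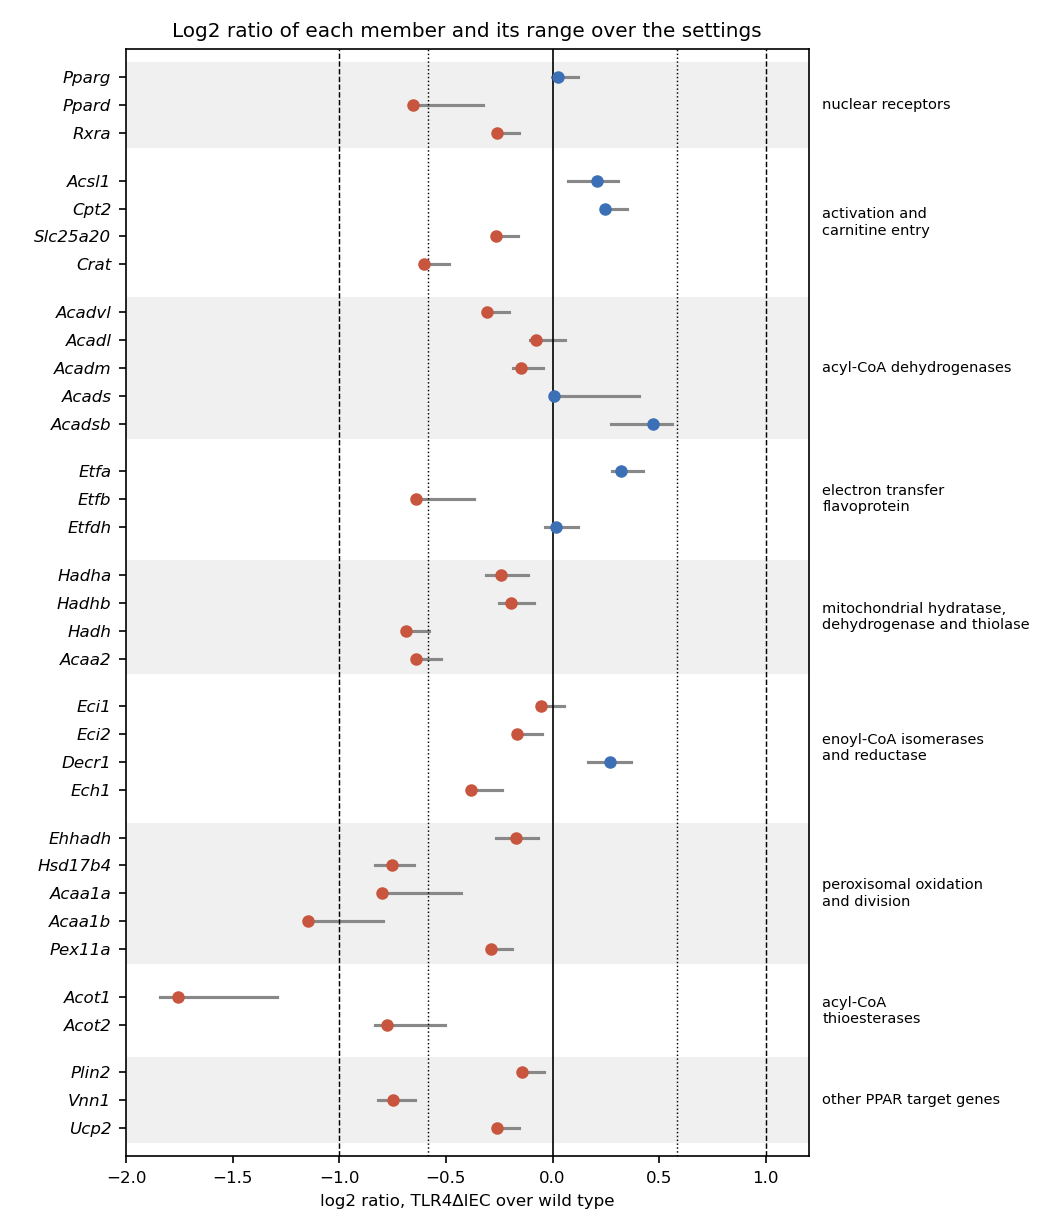
Log2 ratio of each member (dots, TLR4ΔIEC over wild type) with the range over the alternative settings that give single gene values (grey bars). Dashed lines mark 2-fold and dotted lines 1.5-fold, and Acot1 at -1.76 and Acaa1b at -1.14 are the members past the lower dashed line.

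The promoter windows were searched for the direct repeat that PPAR and RXR bind together, AGGTCA followed by itself after any 1 base, on both strands. Windows were found for 28 of the 33 members, and Vnn1, Decr1, Acaa2, Crat and Hsd17b4 had none. No window of a member held the element exactly or with up to 1 mismatch, where 0.04% and 0.56% of all windows did. With up to 2 mismatches it was found in 4 of 32 windows of the members and in 3.86% of all windows. The 4 stretches are shown 5′ to 3′ on the strand of the gene, with letters that match the repeat, or its reverse complement built on TGACCT, in capitals (RefSeq, GRCm38.p6).
Rxra, chr2:27709217-27709229, plus strand: tGGTCAtAGGcCA
Plin2, chr4:86670272-86670284, minus strand: gGACCccTGACCT
Etfa, chr9:55512308-55512320, minus strand: TtACCTtTGcCCT
Slc25a20, chr9:108662142-108662154, plus strand: AGGTgAaAGGTCg
Rxra and Slc25a20 hold the repeat on the gene's own strand, and Plin2 and Etfa on the opposite one. Their log2 ratios were -0.26, -0.26, -0.14 and 0.32, so all 4 lay within 1.5-fold. Of the 11 members past 1.5-fold, Vnn1, Acaa2, Crat and Hsd17b4 had no window, and none of the others held such a match. With a match in only 3.86% of all windows, so few windows cannot show whether these genes lack the element. Bases outside the windows were not searched. By GENCODE, Rxra starts at position 27676440 and Slc25a20 at 108662088, so both matches lie inside those genes. The Rxra match lies before a RefSeq start further downstream.

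Steps of the pathway outside the 33 members did not share one direction. Ppara, the PPAR form that drives fatty acid oxidation in fasting, had 13.7 and 12.1 units (-0.16). Cpt1a, which commits long chains to mitochondrial entry, had 71.5 and 74.0 units (0.05). The PPAR alpha axis with its fasting targets had 9 of 18 genes above the 5-unit minimum, of which 8 were below 0, 5 were at least 2-fold lower and 0 were at least 2-fold higher, with a median of -1.05. The fatty acid binding protein gene Fabp1 (-3.20), the lipase inhibitor gene Angptl4 (60.1 and 14.2 units) and the transcription factor gene Creb3l3 (-1.83) were its lowest.

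Other enzymes of fatty acid oxidation, 30 of 41 above the minimum, had a median log2 ratio of 0.08, with 13 below 0 and 17 above, and 0 past 2-fold. The sterol carrier and peroxisomal thiolase gene Scp2 was the lowest well covered one, at 241 and 137 units (-0.81). Echs1, the mitochondrial hydratase for short chains, was at 54.6 and 87.6 units (0.67), and Nudt19, a peroxisomal hydrolase of coenzyme A, at 20.7 and 36.98 units (0.81). The hydratase Echs1 and the dehydrogenase Hadh catalyse successive steps on short chains, and their levels relative to each other were apart, at 4.35 and 1.68 units of Hadh to 1 of Echs1. Peroxisome biogenesis and membrane genes, 19 of 24 above the minimum, had a median of -0.15, with 12 below 0 and 0 past 2-fold. They included the membrane assembly factor Pex16 (-0.63), catalase (Cat, -0.50) and the transporter Abcd3 (-0.39).

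Other mitochondrial genes mostly lay above 0. Citric acid cycle genes had 16 of 18 members above 0 and a median log2 ratio of 0.25, led by Idh2 (35.9 and 57.4 units, 0.66), fumarase (Fh1, 0.52) and Idh3a (0.45). Genes chosen for mitochondrial mass, such as outer membrane channels and chaperones, had a median of 0.10 with 12 of 18 above 0, led by Hspd1 (0.50), Phb (0.46) and Vdac1 (0.41). Their units summed to 1170 in wild type and 1316 in TLR4ΔIEC, and those of the citric acid cycle to 1845 and 2122, while the members summed to 2402 and 1853. In ketone body metabolism, Bdh1 (0.59) and Oxct1 (0.36), both used to burn ketone bodies, were above 0.

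**Figure D4:**
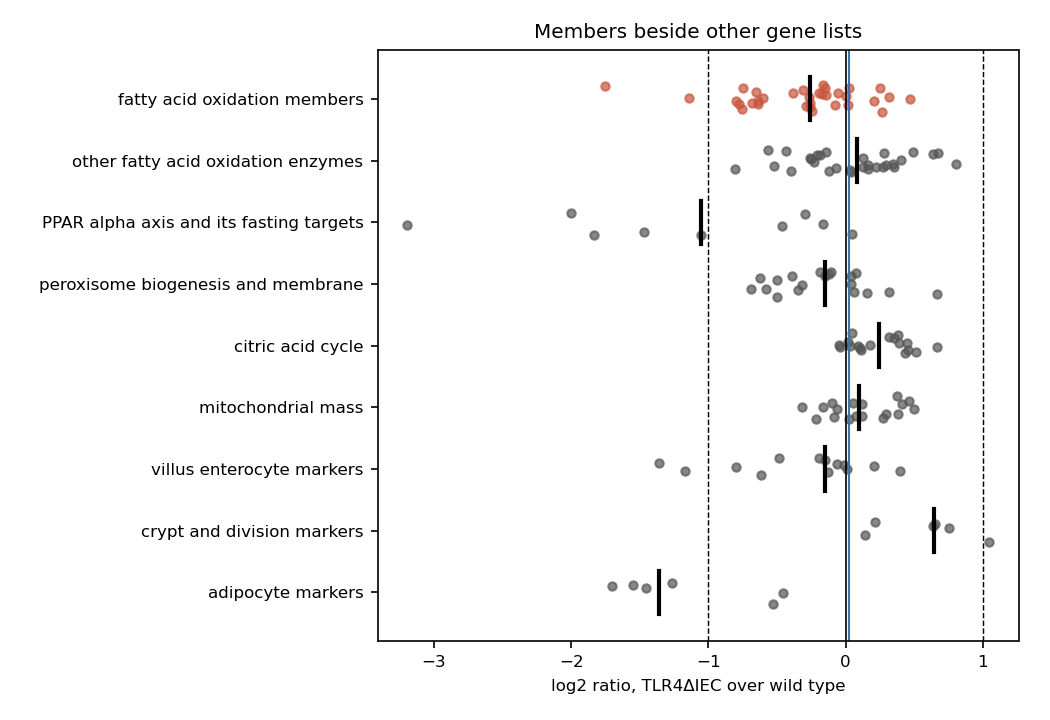
Log2 ratios of the members and of 8 other gene lists, 1 dot per gene that reached a mean of 5 units, with the median of each list as a black bar and the median of all genes (0.03) as a blue line. The members' median of -0.26 lies between that of the PPAR alpha axis (-1.05) and that of the citric acid cycle (0.25).

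Markers of cell types differed as well. Of 13 villus enterocyte markers above the minimum, 10 were below 0, with a median log2 ratio of -0.15 and a range from -1.36 to 0.40. The list of 14 summed to 7999.9 and 5498 units, and to 4062 and 3749 without its most abundant gene, Fabp2. Alpi (-1.36) and Fabp2 (-1.17) were lowest among those of at least 20 units, and lactase (Lct) was near 0 at 0.19 and 0.38 units. All 6 crypt and division markers above the minimum were above 0 (median 0.64, with 284 and 432 units summed over 8 genes), with Mcm6 at 1.05, Olfm4 at 0.75 and Pcna at 0.22. All 6 adipocyte markers above the minimum were below 0 (median -1.36). The full list of 10 adipocyte genes summed to 127 and 62.7 units, with Pnpla2 at -0.53, and Lep near 0 (0.78 and 0.55 units). Adiponectin (Adipoq), named after its values were seen, was at 9.62 and 3.42 units. Brown adipocyte markers (4 genes, 1.72 and 0.63 units summed) and hepatocyte markers (6 genes, 7.81 and 11.5 units) summed to few units. Of the hepatocyte list, albumin (Alb), named after its values were seen, was at 0.84 and 6.10 units, with a mean below the minimum. All 8 immediate early genes above the minimum were below 0 (median -0.86), and the list of 10 summed to 349.5 and 169 units. They included Junb (-1.51), Fos (-1.45) and Jun (-1.06). Of macrophage markers, 4 of 5 were above 0 (median 0.72). The macrophage list summed to 903 and 1678 units, and to 212 and 289 without its most abundant gene, Lyz2 (1.01). Above 0 were also 4 of 5 lymphoid markers (median 0.51) and all 7 smooth muscle markers (median 0.12), while striated muscle markers summed to only 35.2 and 37.9 units. The part of these cell types and of the immediate early genes in the differences of the oxidation genes was not tested.

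Short transcripts tended towards lower ratios over the whole data set. When the genes with an annotated length were divided into 3 equal length classes, the median log2 ratio of all genes was -0.06 in the shortest, 0.01 in the middle and 0.10 in the longest class. The members in those classes had medians of -0.26 (13 genes), -0.24 (14 genes) and -0.25 (6 genes). The members' medians were thus nearly level across lengths. The number of members at least 1.5-fold lower was however 6, not 11, after the trend with length and GC content was removed, where 7.83% of all genes were at least 1.5-fold lower, and 25 members were below 0.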

How the data were processed

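Per the labels' protocols, total RNA was depleted of ribosomal RNA, fragmented and made into strand-specific Ion Torrent libraries. The submitters' processing notes list TopHat2 2.0.10, Bowtie2 2.1.0 and build mm10, without roles, and for the averages a tool is not given in the sources used here. Per the file headers, the deposited signal is average coverage per RefSeq entry, and 1 column belongs to all 3 mice of a genotype, per the labels, so it was used as a pool. The coverage was not scaled by the authors as far as the values show: 99.99% of values were whole bases divided by a length (tolerance 1e-11). For 30 of 33 members and 80.4% of genes tested, 1 length could lie behind both averages. The rule asked for a common multiple of both recovered lengths of at most 20000 bases, so unlike lengths can pass it.

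The columns were joined on 22001 shared entries, which gave 21950 symbols (the highest entry where a symbol repeats), scaled by the median of ratios (factor 1.05) and set to a mean total of 1000000 units. Log2 ratios used a pseudocount of 1, which understates low genes, and folds come from them. The minimum was a mean of 5 units (coverage 3.41 in wild type and 3.58 in TLR4ΔIEC). The read length is not given in the sources used here, so no read numbers or counting intervals are stated.

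Every member is named. Of each other list described, up to 3 genes of at least 20 units with the largest ratios are named, plus Ppara and Cpt1a, and a few genes that the rule would name are not reported here. Members and lists were chosen with earlier results of these data known. Gene coordinates, transcripts and 50-base words are from GENCODE vM21 (GRCm38, the assembly of mm10), and promoters from RefSeq. The steps were tested on simulated data. Python 3.11.15, numpy 2.4.6, pandas 2.3.3 and Biopython 1.88 were used.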

Additional observations from a re-analysis of the deposited data

How the results depend on the processing

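There are no replicates, so no replicate could be left out, and no paired analysis was possible because each genotype has 1 pooled column. A log2 value was taken as moved when it changed by 0.2 or more. The member median stayed between -0.26 and -0.16 over 12 alternatives, of which the removal of the length and GC trend and the restriction to members without shared sequence were chosen after seeing the data. Scaling to the total less its 50 highest genes set the median of all genes at 0.12 and the members' at -0.16, and left 6 members at least 1.5-fold lower. The count past 2-fold was 1 with a pseudocount of 5, a minimum of 20 units or the length and GC trend removed. It was also 1 with only genes for which 1 length could lie behind both averages, which leaves out Acaa1b. The trend removal also left 6 members at least 1.5-fold lower. Of the 20 members without shared exons and with under 10% of 50-base words in other genes, 0 passed 2-fold, 5 were at least 1.5-fold lower and 14 were below 0. Of 25 lower members, 23 had the same sign in all settings that give single values, and of 8 higher ones 6 did, the exceptions being Acadl, Eci1, Pparg and Etfdh. The numbers of all genes at least 2-fold lower and higher were 248 and 115, but 146 and 65 at pseudocount 5, 380 and 206 with a minimum of 1 unit, 130 and 58 with 20 units, 395 and 222 with no minimum, and 188 and 155 with the total less its 50 highest genes. Depth limits the weakly covered members, such as Acadsb, Acot2 and Pparg, most. The cause of these shifts was not tested.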
